A study of Mus musculus and Homo sapiens with 352 samples.

Results

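The network described here consists of all 11820 chromatin loops in the ChIA-PET list of CH12 cells whose CTCF was mutated, out of 23354 loops in the mutant and wild-type lists together. Every interaction of the mutant library was taken, and no measured value chose the members. CH12 is a mouse B cell lymphoma line. The labels give the genotype of the mutant library as CTCFmZF9to11, a mutation placed at zinc fingers 9 to 11 of CTCF, and that of the other library as WT. The series holds 352 samples of several assays and asks about cohesin extrusion. Each genotype had 1 ChIA-PET library, and the sources used here do not say whether the mutant line is 1 clone. No test between genotypes was possible, and values set beside the wild-type list compare 2 libraries.

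CTCF recognises a directional DNA motif through its array of zinc fingers. Cohesin is a ring complex that draws chromatin into a growing loop, and CTCF is known to hold it back, so that loops end at bound CTCF sites, mostly at pairs of sites whose motifs point toward each other. In B cells such loops are best known from the immunoglobulin loci, where they bring distant gene segments and switch regions together. ChIA-PET joins and sequences DNA ends held together in chromatin pulled down with an antibody, here against CTCF. A tag is 1 such sequenced pair, and a loop is a pair of CTCF-bound stretches, the anchors, supported by at least 3 tags.

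The mutant loops joined 12476 anchors with 82222 tags. A loop had a median of 5 tags (quartiles 3 and 8, highest 256) and a median span of 153 kb between anchor midpoints (quartiles 75.9 and 291 kb). All coordinates are mm9, the build named in the submitters' processing notes. Shares below carry 95% Wilson intervals where they are given. Those intervals cover counting error only, and loops that share anchors are not independent. The range over the 20 chromosomes with loops is given as the spread within the library. The CTCF peaks set against the loops came from wild-type CH12 cells, so which of them the mutant protein still bound is not known here.

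Most mutant loops belonged to groups that shared anchors. Anchors joined directly or through other anchors were taken as 1 component. The 12476 anchors fell into 2434 components, and 1653 of these had 3 anchors or more. They held 93.4% of the loops (95% interval 92.9 to 93.8), with a range over chromosomes from 57.3% on chromosome X to 96.5% on chromosome 14. The other 781 components, 32.1% of all, were 1 loop between 2 anchors. A component of 3 or more anchors had a median of 5 anchors (quartiles 3 and 8, highest 54) and 4 loops, and stretched over a median of 404 kb (quartiles 223 and 719 kb, longest 3240 kb). The loops were concentrated in the larger components. Those with 10 or more anchors numbered 291 and held 43.5% of the loops (42.6 to 44.4) and 34.6% of the anchors.

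Components were sorted by shape. In a fan, 1 anchor takes part in every loop and all of its partners lie on 1 side. In a chain, each anchor has at most 1 partner on each side, so that the loops lie end to end. A tree has branches but no closed path, and a closed component has at least 1 path of loops that returns to its start. Closed components were 661 and held 64.4% of the loops. Trees numbered 470 with 18.9% of the loops, and fans 466 with 8.83%. A further 26 components were fans with partners on both sides, with 0.761% of the loops.

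Pure chains were rare. There were 30, or 1.81% of the components of 3 or more anchors (1.27 to 2.58), and all 30 had only 2 loops. The chains on chromosomes 4 and 7 had 12 tags each, the most among the chains. The one on chromosome 4 reached from 134348767 to 134470136. Its left loop had 9 tags over 85.4 kb and its right loop 3 tags over 33.7 kb, and they met at the anchor at 134434831 to 134436694. The loops of the chain on chromosome 7 (26504671 to 26591306) had 4 and 8 tags over 35.3 and 50.2 kb. Those of the chain on chromosome 2 (142684782 to 142920181) had 7 and 4 tags over 108 and 127 kb. In each of these 3 chains the middle anchor thus joined a better and a less well supported loop.

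**Figure D1:**
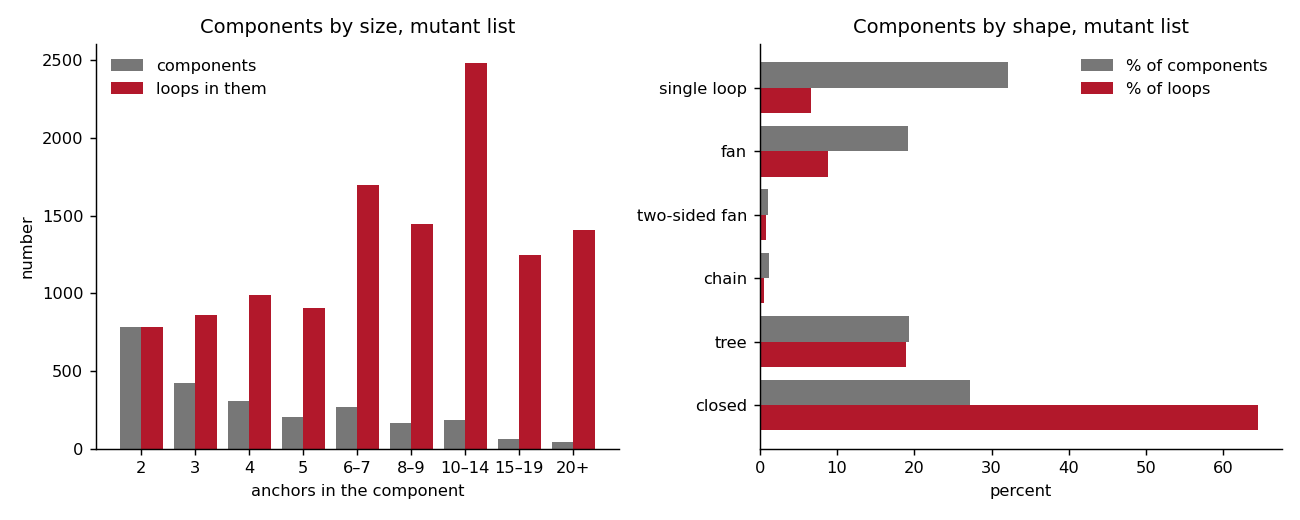
Left, number of components (grey) and of the loops in them (red) by number of anchors per component. Right, percent of components and of loops by shape. Components of 2 anchors were the commonest size, while closed components held 64.4% of the loops and chains 0.508%.

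Longer runs of loops end to end lay in components that also held other loops, since no pure chain had more than 2. The longest run was 1 loop in 822 components, which were those without any anchor used on both sides. It was 2 loops in 510 components, 3 in 195 and 4 in 67. Runs of 5, 6, 7 and 8 loops were the longest in 34, 14, 6 and 4 components.

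One component had a run of 10 loops. It lay on chromosome 10, from the anchor at 57290739 to 57291686 to the one at 60514572 to 60515838, and a second run shared its first 9 loops and ended at 60530810 to 60531805. Going from left to right, the 10 loops had 4, 3, 3, 6, 8, 3, 4, 3, 4 and 4 tags, and 172, 1295, 950, 59.6, 103, 10.1, 25.2, 254, 63.2 and 292 kb of span. The run thus held 2 long, weakly supported loops near its left end and shorter ones to the right. None of its loops had more than 8 tags.

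The largest component lay on chromosome 15 (101157272 to 103173671), with 54 anchors, 79 loops and 794 tags over 2016 kb. Of its anchors, 15 had partners only to the right, 20 only to the left and 19 on both sides. Its loops had a median of 6 tags and a median span of 97.5 kb, and the longest spanned 657 kb. Its outermost anchors were not joined to each other. Its best supported loop, with 68 tags, joined 102528260 to 102530106 with 102572701 to 102574504. The anchor with most partners in it, at 103011748 to 103015043, had 10.

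The 10 loops of that anchor were unequal. The 2 to its left had 12 tags over 216 kb and 18 tags over 195 kb. The 8 to its right, from the nearest partner to the farthest, had 3, 4, 23, 46, 6, 17, 6 and 4 tags over 8.17, 67.5, 97.5, 124, 126, 131, 141 and 160 kb. The most tags on the right were therefore at middle distances, and the nearest and the farthest partner were both near the limit of 3 tags. The next anchor along, at 103138557 to 103139518, lay within a few kb of the partner at 103137229 to 103138342 that had 46 tags, and it had 6.

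**Figure D2:**
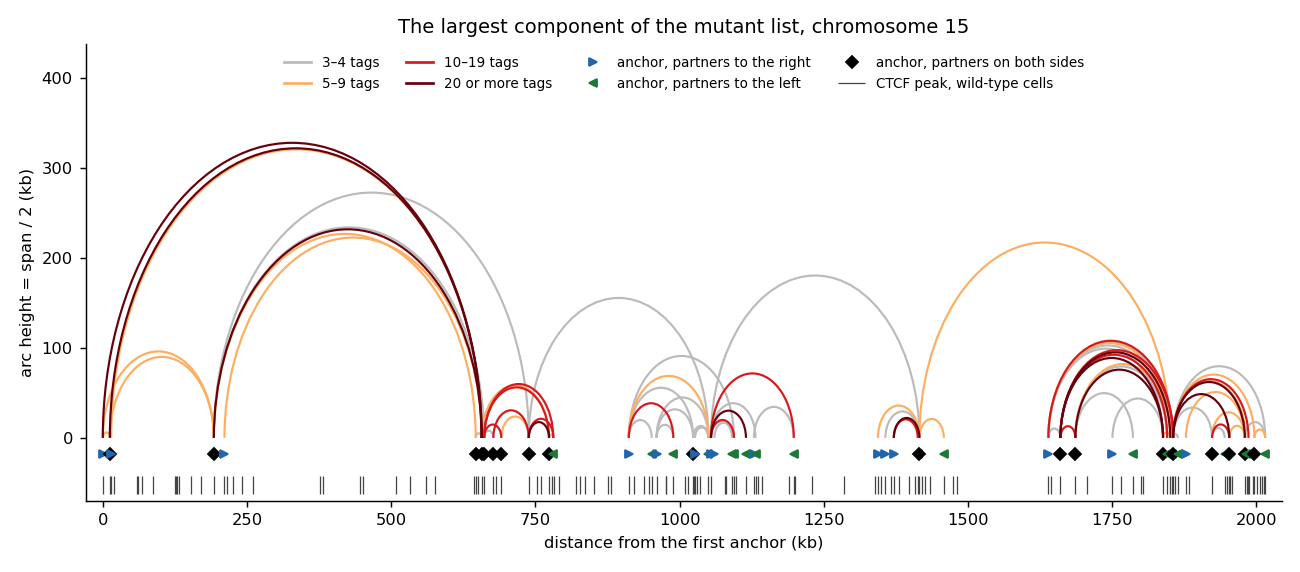
Loops of the largest component as arcs over distance from its first anchor in kb, with arc height equal to the span divided by 2 and colour giving the tags. Triangles mark anchors by the side of their partners, diamonds anchors with partners on both sides, and ticks the 135 CTCF peaks of wild-type cells in the stretch. Nested groups stand side by side, and the loops that link them differ in support, from single loops of few tags to the loops of 12 and 18 tags that reach the rightmost group.

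The 4 next largest components had 36 to 40 anchors and 43 to 48 loops, and all 4 were closed with unjoined outermost anchors. The neighbour of the largest, on chromosome 15 (99146878 to 101030020), had 40 anchors and 338 tags. The one on chromosome 2 (166897176 to 168478343) had 39 anchors and 424 tags, and its best connected anchor was its leftmost, at 166897176 to 166898269, with 6 partners to the right and none to the left. The one on chromosome 11 (3246712 to 4885104) had 36 anchors and 452 tags. It held the strongest loop of the 5 largest components, with 138 tags between 4118701 to 4121159 and 4157632 to 4159579, and the right anchor of that loop had 4 partners on each side. The one on chromosome 3 (107008584 to 108714597) had 36 anchors and 280 tags.

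The components became smaller when loops near the limit of 3 tags were left out. With loops of 4 or more tags, 8134 of the 11820, there were 124 components of 10 or more anchors in place of 291, and the largest had 46 anchors. With 5 or more tags these numbers were 56 and 20, and with 10 or more tags 2 and 11. Among the 534 loops with 20 or more tags, 83.9% of 435 components were a single loop. Loops that were the sole link between 2 sets of loops numbered 1580, or 13.4% of all, and 30.5% of them had exactly 3 tags. In the whole list 68.8% of the loops had 4 or more tags, so the sole links were about as well supported as the list. Loops that ended in an anchor with no other loop were 40.5%, with 35.0% at 3 tags. Loops on a closed path were 39.6%, with 26.4% at 3 tags. The medians of these 3 kinds were 5, 4 and 5 tags and the means 6.95, 6.05 and 8.14 tags, so loops on a closed path had the highest mean support.

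Anchors were mostly one-sided. Partners lay only to the right for 5313 anchors (42.6%), only to the left for 5386 (43.2%) and on both sides for 1777 (14.2%; 13.6 to 14.9). Only 1 partner was listed for 50.9% of the anchors, and an anchor with 1 partner is one-sided by construction. Of the 1777 two-sided anchors, 36.6% (34.4 to 38.9) had equal numbers of partners on the 2 sides, and 54.9% had 1 partner on 1 side and 2 or more on the other. The side with fewer tags held a median of 25% of the anchor's tags, and under 20% for 675 of them (38.0%). Loops between a right-reaching and a left-reaching anchor were 55.4% of all, loops with 1 two-sided end 37.2% and loops with 2 two-sided ends 7.45%. Their mean support was 6.39, 7.28 and 9.58 tags, with medians of 4, 5 and 5.

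Better connected anchors lay on stronger CTCF peaks. The strongest peak at each anchor was ranked by the authors' score within the wild-type peak list and is given as a percentile of that list. The median percentile was 69.1 for anchors with 1 partner, 77.5 for 2 partners, 84.9 for 3 to 5 and 97.3 for the 250 anchors with 6 or more. It was 72.7 for right-reaching, 74.4 for left-reaching and 87.1 for two-sided anchors. Anchors with most partners therefore sat near the top of the wild-type peak ranking. Two-sided anchors have 2 partners or more by definition.

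The anchor with most partners in the whole list lay on chromosome 14 at 54847143 to 54848594 and had 12. The 2 to its left had 5 and 22 tags over 168 and 163 kb. The 10 to its right, nearest first, had 9, 3, 54, 5, 3, 5, 9, 12, 9 and 5 tags over 11.0, 189, 220, 265, 295, 326, 340, 413, 422 and 473 kb. As at the chromosome 15 anchor, 1 partner at a middle distance had far more tags than the rest.

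Among one-sided anchors with several partners, the nearest partner had most tags more often than the farthest. For 2738 anchors with 2 partners the nearer had more tags in 49.2% (47.3 to 51.1) and the farther in 34.8% (33.1 to 36.6), with a tie in the remaining 437. With 3 partners the shares were 36.5%, 33.8% and 18.0% from nearest to farthest over 1052 anchors. With 4 partners they were 31.4%, 26.1%, 20.8% and 11.6% over 395 anchors. With 5 partners they were 25.5%, 28.2%, 20.9%, 13.6% and 5.45% over 110 anchors, where the intervals of the first 3 overlapped. The farthest partner was lowest in each of these 4 groups, while the nearest and the second partner differed beyond their intervals only at 2 partners.

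**Figure D3:**
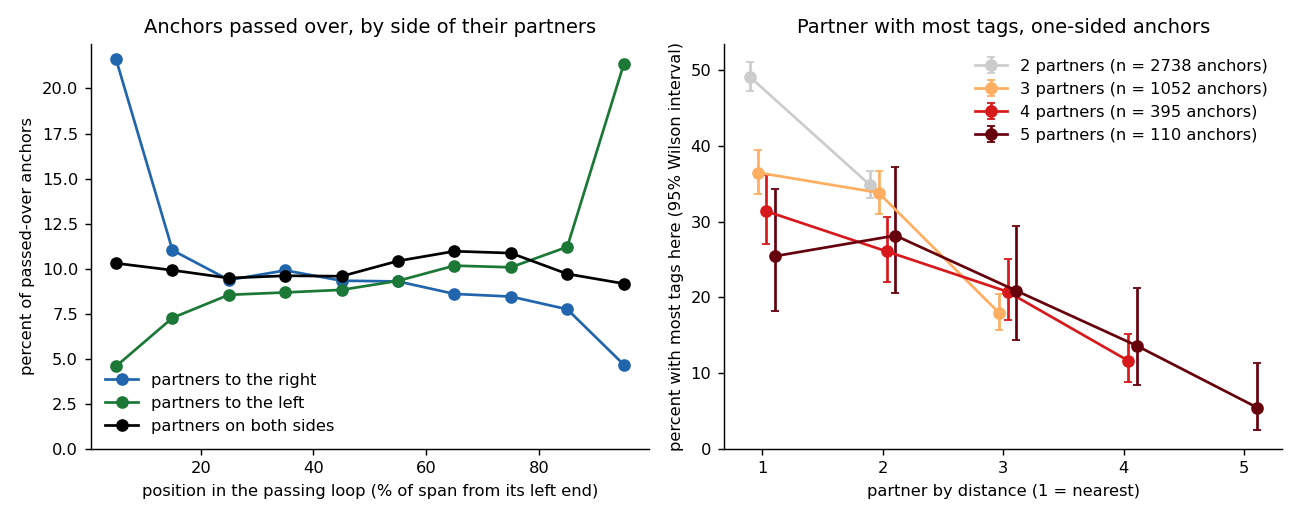
Left, anchors that a loop of the same component passes over, by their position in that loop in percent of its span, split by the side of their own partners. Right, percent of one-sided anchors whose partner at each distance rank has most tags, with 95% Wilson intervals. Of the right-reaching anchors, 21.6% lay from 0 to 10% of the span, and of the left-reaching anchors 21.3% lay from 90 to 100%.

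Loops of 1 component were also ordered along the chromosome. Of the 822 components of 3 or more anchors without a two-sided anchor, 80.4% had every right-reaching anchor to the left of every left-reaching anchor. A component of 3 anchors without a two-sided anchor has this order by construction. Among the 450 such components with 4 or more anchors the share was 64.2% (59.7 to 68.5). The rest held 2 or more interleaved sets of facing anchors. Loops passed over 20285 anchors in all, counted once per loop, and 93.6% of these (93.3 to 93.9) belonged to the passing loop's own component. The passed-over anchors of the same component lay at a median of 0.379 of the span from the left end when they reached right (n = 7503), 0.628 when they reached left (n = 7594) and 0.510 when they reached both ways (n = 3894). A right-reaching anchor is the left end of its own loops, so where these are nested under the passing loop it lies left of its partners by construction. No level without such order was computed.

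Most loops were nested and many crossed. A loop was counted as inside another when both of its ends lay within or at the ends of a longer loop. This was true of 71.3% of the loops (70.4 to 72.1), and the range over the 19 autosomes and X was 37.8% on X to 77.0% on chromosome 14. Pairs that shared an anchor made up much of this, and without them 30.8% were inside another (29.9 to 31.6). Loops that contained another were 60.3%. A loop crossed another when exactly 1 end of each lay strictly inside the other. Crossing loops were 40.4% (39.5 to 41.3), from 7.32% on X to 50.7% on chromosome 14. The outermost loops, neither inside nor crossing another, were 16.3%.

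Separate loops, which shared no anchor and no base between their ends with any other, numbered 532, or 4.5% (4.14 to 4.89). Only 174 loops (1.47%) touched others end to end and in no other way. The separate loops had a median of 4 tags and a median span of 155 kb, against 5 tags and 153 kb for the rest, and they passed over a median of 2 CTCF peaks against 4. The best supported of them lay on chromosome 4 (132500985 to 132502138 with 132560660 to 132562311, 33 tags over 59.9 kb). The next lay on chromosome 12 (81870224 to 81871326 with 81994689 to 81996948, 31 tags over 125 kb). Its anchors held peaks at percentiles 97.8 and 95.9, so a separate loop could also join very strong peaks. All of the 3 best supported separate loops were in the wild-type list too, with 25, 28 and 19 tags there.

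Counted as pairs of loops, 15121 pairs were nested with a shared anchor, 6958 were nested without one, 4773 crossed and 5151 lay end to end at a shared anchor. Nesting and crossing stayed mostly within a component. The 2 loops belonged to the same component in 92.6% of the nested pairs without a shared anchor and in 94.1% of the crossing pairs. Counted as components and not as pairs of loops, 24.3% of the 2434 components shared some stretch with another. In nested pairs with a shared anchor the inner loop had more tags in 50.4% (49.6 to 51.2), the outer loop in 35.8%, and the tags were equal in 13.8%.

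The deepest nesting was on chromosomes 11 and 13. A loop on chromosome 11 (11456535 to 11457907 with 11642401 to 11643423) lay inside 15 others and had 27 tags over 186 kb. A loop on chromosome 13 (52928207 to 52929521 with 53077769 to 53079075) also lay inside 15 others, with 13 tags over 150 kb. The third, from 52806902 to 52808121 to the same right anchor on chromosome 13, lay inside 14 and had 40 tags over 271 kb. The most contained loops thus had well above the median of 5 tags. They were in the wild-type list with 20, 5 and 15 tags.

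The loops that contained most others were also on chromosome 13, in 1 component of 27 anchors. One loop from 52347857 to 52350164 to 53521606 to 53522825 contained 38 others over 1173 kb and had 5 tags. The next 2 started at 52746654 to 52747325, contained 29 and 28 loops and had 3 tags each. None of these 3 wide loops was in the wild-type list. Their support was at or near the limit of 3 tags, unlike that of the most contained loops.

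Across all mutant loops, tags were weakly and positively related to the number of loops a loop lay inside (Spearman rho 0.202 over 11820 loops). They were weakly and negatively related to span (rho -0.088) and to the number of CTCF peaks passed over (rho -0.118). With the further partners of the 2 anchors the relation of tags was weak and positive (rho 0.144). These values describe 1 library, whose loops share anchors and depth. Loops inside another had a mean of 7.66 tags and a median span of 125 kb, and those inside no other 5.21 tags and 246 kb. Crossing loops had a mean of 5.94 tags and a median span of 185 kb, and loops that crossed none 7.64 tags and 126 kb.

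A path of 2 loops through a shared anchor was closed by a loop between its end anchors in 20.9% of 20272 cases (20.3 to 21.4). Paths with the shared anchor between the other 2 anchors were closed in 27.4% of 5151 cases (26.2 to 28.6). Paths with the shared anchor outside were closed in 18.6% of 15121 cases (18.0 to 19.3). The closed paths formed 1410 triangles of 2 short loops and 1 outer loop. By construction each triangle gives 1 closed path with the shared anchor between and 2 with it outside. The closed cases, 1410 and 2820, are thus tied, and the 2 shares differ through their numbers of paths. The triangles took in 27.4% of the loops, and 32.5% of the components of 3 or more anchors had at least 1. The outer loop had most tags in 28.4% of the triangles and fewest in 21.4%. Over the triangles, the outer loop had a median of 6 tags, the stronger short loop 9 and the weaker short loop 4. The stronger and the weaker short loop are the higher and the lower of a pair by definition, so these medians do not rank the outer loop. Complete sets of 4 loops between 2 left and 2 right anchors were 844 of 7820 sets with 3 or 4 of these loops (10.8%; 10.1 to 11.5).

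Neighbouring anchors were joined in 32.6% of 12456 cases (31.8 to 33.4), and loops between neighbours were 34.4% of all loops. A loop passed over a median of 1 other anchor and at most 19. The 2 outermost anchors of a component were joined in 57.6% of the 1653 components of 3 or more anchors (55.2 to 60.0). For the 291 components of 10 or more anchors the share was 8.59% (5.89 to 12.4). A fan has its outermost anchors joined by construction, and so has a component of 3 anchors that is not a chain. Fans were 466 of the 1653 components, and 421 components had 3 anchors. The share of 57.6% is therefore partly set by shape and size. Components of 10 or more anchors seldom had 1 loop that framed them.

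The loops covered 1027 Mb, or 40.0% of the 2566 Mb between the first and the last CTCF peak of each chromosome. The covered length formed 2115 unbroken stretches with a median of 342 kb (quartiles 170 and 659 kb). The gaps between them had a median of 105 kb (quartiles 28.4 and 452 kb). Of the covered length, 34.2% lay under 1 loop and 40.6% under 3 or more. Up to 16 loops lay over 1 position, and this depth was reached on chromosome 11 (11457221 to 11642911) and chromosome 13 (52928864 to 53078421), inside the 2 most contained loops. Covered shares ran from 7.95% on chromosome X and 34.0% on chromosome 3 to 57.4% on chromosome 19 and 59.9% on chromosome 11.

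The longest stretch without a gap was 3393 kb on chromosome 6 (68721697 to 72115018), covered by 20 loops of 2 components with 149 tags. The next, on chromosome 10 (57291213 to 60531307), was 3240 kb with 41 loops of 2 components and 246 tags, and it is the stretch that holds the run of 10 loops. The third was 3225 kb on chromosome 2 (168816146 to 172041459), with 13 loops of 1 component and 94 tags. Long stretches were therefore not those with most loops, since the largest component held 79 loops in 2016 kb. The longest gap between loops was 27882 kb on chromosome X (103301035 to 131182723), with 45 CTCF peaks inside. On chromosome 14 a gap of 19456 kb (80061135 to 99516962) held 33 peaks, although the loops of that chromosome were nested and crossed more than those of any other.

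Chromosome X stood apart from the autosomes in several measures, and it did so in the wild-type list too. In the mutant list it had 82 loops, against 290 to 1099 on each autosome. Of these 82, 36.6% were separate, 37.8% were inside another and 30.5% passed over no CTCF peak. None of 34 paths of 2 loops was closed there. An approximate upper limit, taken as 3 divided by the number of paths and not as a Wilson interval, is 8.82%. Paths that share loops are not independent. Among the autosomes the share of separate loops ran from 2.23% on chromosome 19 upward, and the median over all 20 chromosomes was 4.28%. The wild-type list had 106 loops on X, of which 38.7% were separate, 33.0% inside another and 34.0% passed over no peak. Peaks were also sparse on X, at 0.475 per 100 kb against 1.13 on chromosome 3 to 2.72 on chromosome 11 among the autosomes. The part of peak density in these values was not tested.

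**Figure D4:**
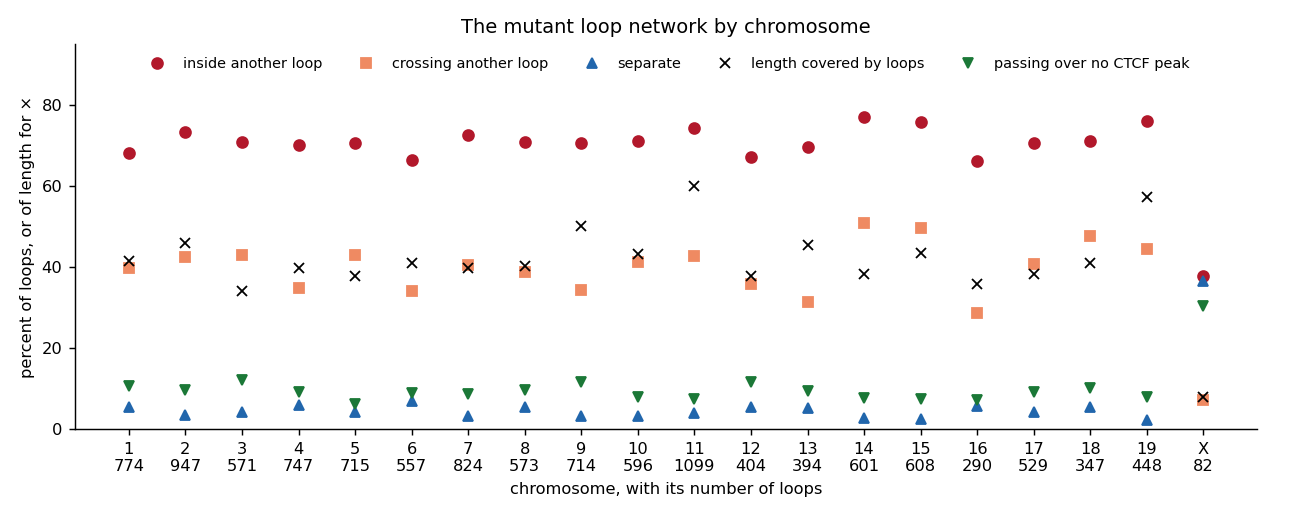
Percent of mutant loops inside another loop, crossing another, separate, and passing over no CTCF peak, with the percent of length covered by loops, for each of the 20 chromosomes and with the number of loops below its name. Chromosome X has only 7.95% of its length covered and 36.6% of its loops separate.

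Each loop was then set against the CTCF peaks of wild-type CH12 cells. A peak was passed over when it lay wholly between the inner edges of the 2 anchors. A mutant loop passed over a median of 4 peaks (quartiles 2 and 8, 90th percentile 12, highest 64). Loops that passed over none were 1087, or 9.20% (8.69 to 9.73), and loops that passed over 10 or more were 2095, or 17.7% (17.0 to 18.4). The range over chromosomes for loops passing over none was 6.15% on chromosome 5 to 30.5% on X. Passed-over peaks lay at anchors about as often as peaks in general. Of 65513 passed-over peaks, counted once per loop, 31.5% lay at an anchor of the list (31.1 to 31.8). Of all 39437 peaks, 32.5% did (32.0 to 33.0). Loops that passed over no peak at an anchor were 34.9%.

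The number of peaks passed over followed span (Spearman rho 0.654 over 11820 loops). Of loops under 50 kb, 33.6% (31.3 to 35.8) passed over none and the median was 1 peak. From 50 to 100 kb, 12.0% passed over none, from 100 to 200 kb 5.38% and from 200 to 400 kb 2.01%, with medians of 2, 4 and 7 peaks. Of the 1402 loops from 400 to 800 kb, 0.785% passed over none, and of the 400 longer ones 0.500% (0.137 to 1.8), with medians of 10 and 11. Number and density went opposite ways. Short loops under 50 kb held 4.33 peaks per 100 kb, and the density was lower in each longer class, at 3.82, 3.32, 2.68, 2.02 and, above 800 kb, 1.11. Over the whole stretch between first and last peaks it was 1.54. Only loops above 800 kb lay below that level. The measures are not alike. The class values count a stretch once per loop over it and leave out peaks at the loop's own anchors. The value of 1.54 counts each peak and each base once.

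**Figure D5:**
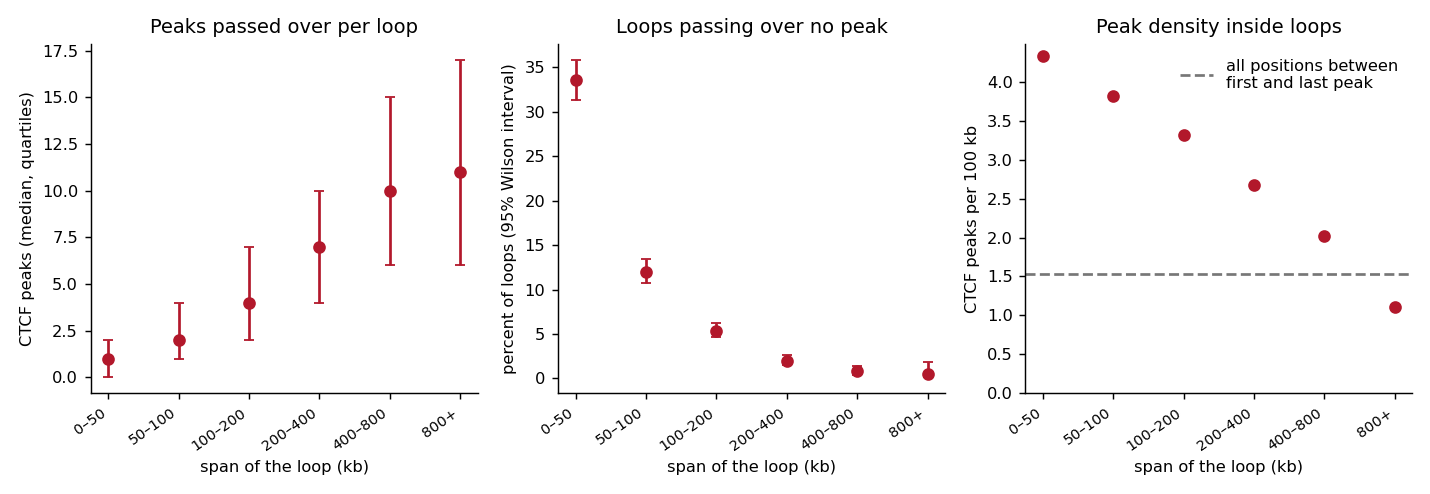
CTCF peaks passed over by mutant loops in 6 span classes. Left, median and quartiles per loop. Middle, percent passing over no peak with 95% Wilson intervals. Right, peaks per 100 kb between the inner anchor edges, counted once per loop. The dashed line is the density of the whole stretch, 1.54, with each peak counted once. Longer loops pass over more peaks, up to a median of 11, at a lower density.

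Density differed in and outside loops also for peaks at no anchor. There were 1.56 such peaks per 100 kb in covered stretches and 0.688 outside. All in all, 60.9% of the 39437 peaks were passed over by at least 1 loop. Peaks used as anchors were passed over about as often, 62.3% of 12812 (61.5 to 63.2). Their score did not separate those passed over from those never passed over, with median percentiles of 75.4 and 74.8. Peaks passed over and at no anchor were 40.7% of all, with a median percentile of 36.9, and peaks neither passed over nor at an anchor were 26.9%, with 39.1. The list's anchors thus drew on the stronger peaks, and passing over was spread across both.

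Loops could pass over peaks stronger than their own. Of the 11593 loops with a peak at both anchors, 32.4% (31.5 to 33.2) passed over a peak stronger than both of their own. The range over chromosomes was 25.6% on X to 37.6% on chromosome 17. A peak stronger than the weaker of their own was passed over by 63.6% (62.8 to 64.5). The share passing over a peak stronger than both was 10.1% under 50 kb, 33.4% at 100 to 200 kb, 50.4% at 400 to 800 kb and 48.3% above 800 kb. Longer loops also passed over more peaks, with medians of 1, 4, 10 and 11 in these classes. No level expected from the number of peaks was computed. Loops passing over no peak had a mean of 7.55 tags, those passing over 1 to 9 peaks 7.27 and those passing over 10 or more 5.36, with medians of 5, 5 and 4.

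The loop that passed over most peaks lay on chromosome 8 (122702085 to 122703825 with 123616283 to 123617385). It spanned 914 kb, passed over 64 peaks, 19 of them at anchors, contained 23 loops and had 3 tags. Its own peaks were at percentiles 99.9 and 87.4. The next 4 passed over 43 to 46 peaks on chromosomes 11, 8, 11 and 2, spanned 1036 to 1825 kb and had 3 or 4 tags. Of these, both loops on chromosome 11 ended at the anchor at 20813167 to 20814670. None of the 5 was in the wild-type list. The loops that passed over most peaks thus all had few tags.

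The longest loop that passed over no peak lay on chromosome 2 (47641074 to 47642050 with 48741294 to 48742255). It spanned 1100 kb, had 7 tags and was not in the wild-type list. Its own peaks were at percentiles 49.5 and 40.3, below the median for anchors. The next, on chromosome 4 (81209950 to 81210924 with 82187657 to 82188671), spanned 978 kb with 9 tags here and 4 in the wild-type list. The other 3 lay on chromosome 9 with 5 tags over 670 kb and on chromosome 14 with 6 tags over 526 kb and 7 tags over 505 kb, and they had 9, 4 and 4 tags in the wild-type list. These 5 loops thus crossed long stretches without a listed peak, and their 5 to 9 tags were at or above the list's median.

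Beside the wild-type list, the mutant loops were more often nested and crossing and less often separate. The wild-type list had 11534 loops, 74198 tags and 13547 anchors in 3236 components, and its largest component had 30 anchors. It had 89.6% (89.0 to 90.1) of loops in components of 3 or more anchors, 66.2% (65.4 to 67.1) inside another, 31.5% (30.6 to 32.3) crossing and 7.82% (7.34 to 8.32) separate. Two-sided anchors were 9.57% there, closed paths 17.6% (17.0 to 18.2) and loops passing over no peak 13.1% (12.5 to 13.7), with a median of 3 peaks. The mutant shares inside and crossing were higher on 20 of 20 chromosomes, and those separate and passing over none were lower on 20 of 20. The covered length was 38.1% in the wild-type list, and the mutant share was higher on 12 of 20 chromosomes. Paths with the shared anchor outside were closed in 14.6% (14.02 to 15.26) in the wild-type list against 18.6% in the mutant list. Other measures were higher in the wild-type list. Outermost anchors were joined in 68.1% (66.0 to 70.1) of the wild-type components of 3 or more anchors against 57.6% in the mutant list. Fans, in which they are joined by construction, were 36.3% of these wild-type components and 28.2% of the mutant ones. Among components of 10 or more anchors the joined shares were 17.2% (12.6 to 23.04) against 8.59%. Paths with the shared anchor between were closed in 29.4% (27.9 to 31.1) against 27.4%, with overlapping intervals. The greatest depth was 20 loops against 16. No test was made, since each genotype had 1 library. The mutant list also held more loops and tags and longer loops (median span 153 against 131 kb). Their part in these differences was not tested. The span classes below sort each loop by its own span. Nesting, crossing and separateness in them are still counted against all loops of the list, so they cannot set the part of longer loops apart.

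Within the 6 span classes the mutant shares inside and crossing were higher, and those separate and passing over none lower, in each class. The mutant share of loops containing another was lower in the 3 classes under 200 kb, at 19.1% against 21.7% under 50 kb, and higher in the 3 longer ones. Components, closed paths and two-sided anchors were not split by span. Of loops from 100 to 200 kb, 45.6% crossed another in the mutant list and 37.9% in the wild-type list. Of those from 400 to 800 kb, 49.1% and 34.5% did. Separate loops from 100 to 200 kb were 4.16% and 6.76%. Loops passing over no peak were 33.6% (31.3 to 35.8) and 38.4% (36.4 to 40.5) under 50 kb, and 5.38% (4.65 to 6.21) and 6.95% (6.12 to 7.88) from 100 to 200 kb, where the intervals meet.

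Some mutant components held anchors of several wild-type ones. Of the 2434 mutant components, 658 (27.0%) held anchors of 2 or more wild-type components and 185 (7.60%) of 3 or more. In the other direction, 309 (9.55%) of the 3236 wild-type components held anchors of 2 or more mutant components. The mutant list had fewer components, and more of them had 10 or more anchors (291 against 198). The part of component size in these shares was not tested. The largest mutant component had 44 of its 54 anchors in the wild-type list, in 5 components, and its neighbour on chromosome 15 had 32 of 40, in 9. Mutant loops that joined anchors of different wild-type components numbered 1219, or 10.3% of the list, with a median of 4 tags and a median span of 265 kb. Loops in both lists had medians of 7 tags and 134 kb. The other mutant loops absent from the wild-type list also had a median of 4 tags. Of these, 1485 joined anchors of the same wild-type component (median span 160 kb). In the other 3716, an anchor was missing from the wild-type list (151 kb). Components with the same anchors in both lists were 208, and 128 of these were single loops.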

How the data were processed

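For each interaction the authors deposited a count of tags. Per the file headers, tags were assigned to called CTCF peaks holding a core motif, with a minimum of 3 tags and a maximum size of 2 Mb. The listed tags leave out weaker pairs, so their sum does not give a library's depth. The CH12 peak list, as deposited, holds 1 score per peak, used only as a rank within the list. The submitters' processing notes name mm9 and, with no roles, BWA, bedtools 2.25, SAMtools 1.2, Bowtie 1.1.1 and CASAVA 1.8.2. Not given in the sources used here are the interaction caller and the cells whose peak calls set the anchors.

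Anchors with identical coordinates were 1 anchor, loop ends were anchor midpoints, and a peak lay at an anchor when they overlapped by 1 bp. Of 39438 CH12 peaks, 39437 lay on the 20 chromosomes with loops. The B cell peak list served for 1 alternative, by position. Components, nesting, crossing, coverage and peaks passed over were computed with Python 3.11.15, numpy 2.4.6, scipy 1.17.1 and networkx 3.6.1 (figures with matplotlib 3.10.9) and tested on simulated data, where 200 of 200 planted components were given their class.

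Named were the 5 components with most anchors, the 3 chains with most loops, the 5 loops passing over most peaks, the 5 longest passing over none, the 3 inside most others, the 3 containing most others, the 3 separate loops with most tags and the 3 longest covered stretches, with ties going to more tags. The runs end to end, the counts by minimum tags, the loops by wild-type component, the longest gaps, the deepest position and the 2 anchors shown with all their loops were chosen after the data were seen. The members and measures were chosen with earlier results of these data known. Alternatives were higher tag limits, merged or widened anchors, other peak sets and a span limit. No gene is named at a position and no sequence is printed, since the reference tables used here are of another build.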

Additional observations from a re-analysis of the deposited data

How the results depend on the processing

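The effect of depth could not be examined, and 1 library per genotype leaves no measure of variation between cultures. No paired analysis was possible because each genotype had 1 ChIA-PET library. Of 44 alternatives, 10 left the value within its 95% interval and 34 moved it; coverage and density have no interval, so any change counts as a move. With 4 or more tags (fewer loops by construction), 87.5% of loops were in components of 3 or more anchors, the median component had 4 anchors, 18.8% of paths were closed, 63.3% of loops were inside another, 26.0% crossed, 9.86% were separate and 32.6% of the length was covered. With 10 or more tags these values were 54.9%, 3, 10.4%, 32.3%, 3.72%, 43.2% and 10.2%. At that limit chains were 4.63% of components, loops passing over no peak 9.90%, the median 3 peaks, the density 2.46 per 100 kb, and loops over a peak stronger than both their own 19.1%. Merging anchors within 10 kb gave 3.33% chains and 27.3% closed paths, and merging within 5 kb gave 33.2% crossing. Leaving out pairs that share an anchor gave 30.8% inside another. With loops under 800 kb only, 69.9% were inside another, 5.10% separate and 33.3% of the length covered. Outer anchor edges gave 40.1% covered. With peaks at or above the median score, 23.5% of loops passed over none, with a median of 2 and a density of 1.17; with B cell peaks these were 5.30%, 6 and 3.84. Counting only peaks at anchors, 24.9% passed over a stronger one. The mutant and wild-type values kept their order in 41 of 44 alternatives. The exceptions were the median anchors, equal at 4 and 10 or more tags (4 and 3 in both lists), and the chains at 10 or more tags (4.63% and 5.78%). Beyond what the construction gives, the cause was not tested.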
